A study of Homo sapiens with 27 samples.

Results

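Gene expression was compared between EA.hy926 endothelial cells that had been kept for 48 h in direct contact with senescent mesenchymal stromal cells (MSCs) and the same cells kept with young MSCs. The comparison rests on 6 of the 27 libraries of the series, 3 on each side (replicates 2 to 4), chosen by the sample titles. EA.hy926 is a hybrid of an umbilical vein endothelial cell and the lung carcinoma line A549. The MSCs were ASC52telo, an adipose stromal line immortalised with the telomerase gene TERT, and the cell types were mixed at equal numbers. Young MSCs were untreated. Senescent MSCs had been exposed for 18 h to 1.5 µg/mL of mitomycin C, which crosslinks DNA, and then held for 10 days with no passage. Control EA.hy926 cells without MSCs (replicates 2 to 4) gave the reference level of each gene. Both lines are single immortal lines, so replicates carry no donor variation. The labels name no step that separated the cells after co-culture, and name MSCs as the source in the extraction protocol but endothelial cells as the cell type. They also do not state whether replicates were separate cultures, so the p-values measure library-to-library spread, and that spread may be technical only.

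Cells that enter senescence stop dividing but go on to release cytokines, growth factors and proteases, known as the senescence-associated secretory phenotype. Stromal cells lay down fibrillar collagen and support vessels, and endothelial cells line the vessels and answer to cytokines of their neighbours. Type I interferon, released by many stressed cells, drives interferon-stimulated genes through a transcription factor complex that binds a promoter element of paired GAAA repeats.

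Total counts ran from 92945551 to 111512357 in the young and from 66320519 to 82259492 in the senescent co-culture libraries, so every senescent library was shallower than every young one. The part of depth in the results below was not tested. Of the 10 endothelial markers checked, 9 were measured in all 6 libraries, among them PECAM1, CDH5, TIE1, TEK and EGFL7, while CLDN5 had at most 1 count in any of them. Some markers of other cells were scarce: MYH11 of smooth muscle had 0 counts in each, ADIPOQ and PLIN1 of adipocytes at most 1 and 3 counts, and PTPRC of leukocytes at most 7. Others were not. Smooth muscle contractile genes took 0.096% of counts with young and 0.103% with senescent MSCs, and epithelial identity genes 0.475% and 0.387%. Endothelial identity genes took 0.908% and 0.962%. Young replicate 1 was left out, since ribosomal protein genes took 27.6% of its counts against 5.90 to 9.22% in young replicates 2 to 4. The shares of ribosomal protein genes overlapped between senescent and young co-culture (6.48 ± 0.74% and 7.41 ± 1.68%, SD, n = 3 and 3; exact permutation test, two-sided, p = 0.5, adjusted over 26 shares p = 0.867), as did those of the mitochondrial genome (2.09 ± 0.51% and 2.36 ± 0.29%; exact permutation p = 0.6, adjusted p = 0.867). With 3 against 3 libraries that test cannot give a p below 0.1.

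Few genes differed between senescent and young co-culture, and most of them rose from a level at which control endothelial cells barely express them. Of 17729 genes tested, 56 were higher and 14 lower with senescent MSCs, which is 0.395% of the genes tested (0.316% higher and 0.079% lower; edgeR quasi-likelihood test, adjusted p under 0.05). Genes were called near absent when each control library held under 1 CPM (a gene's counts over the library's total, after TMM scaling), and expressed when each held at least 5 CPM. Among 4886 near-absent genes tested, 39 rose and 5 fell (0.901%). Among 3097 genes of intermediate level, 10 rose and 5 fell (0.484%), and among 9746 genes expressed in control, 7 rose and 4 fell (0.113%). The filter on low counts sits at about 0.109 CPM in at least 3 libraries, so a near-absent gene can pass it through 1 group alone. Of 33 genes that reached the level of the filter in senescent libraries alone, 8 were called higher, and their number is no support for a difference. The median log2 fold change was 0.00 over all genes tested. Leaving out 1 of the 6 co-culture libraries at a time left between 25 (without young replicate 2, or senescent replicate 2) and 55 genes called, and 22 genes were called in all 6 such fits, 18 higher and 4 lower. None of the 11 control-expressed genes was among these 22. With all replicates used, young replicate 1 included, 0 genes were called by edgeR (by unadjusted p under 0.05, 566), and 4 by DESeq2. The part of young replicate 1 alone in that loss was not tested.

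**Figure D1:**
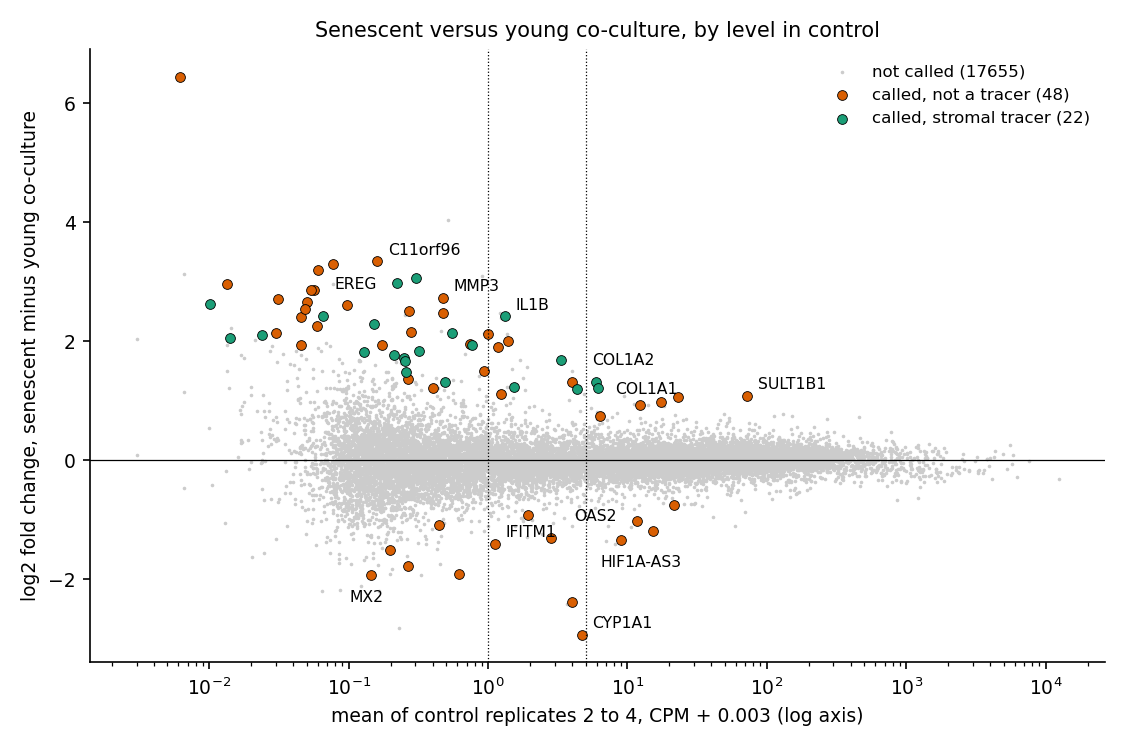
Each point is a gene: the horizontal axis is its mean level in control replicates 2 to 4 (CPM + 0.003, log axis) and the vertical axis its log2 fold change in senescent against young co-culture. Dotted lines mark the class limits of 1 and 5 CPM, and most of the 70 called genes (48 that are not stromal tracers, 22 that are) lie to the left of the first line; sex-linked marker genes are not drawn, which leaves 17725 points.

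Most transcripts that trace stromal RNA had higher levels with senescent than with young MSCs. Tracer genes of stromal RNA were defined without the co-culture libraries. In replicate 1 of the control, matrix and conditioned-medium groups, libraries that are rich in stromal transcripts, a tracer averaged at least 5 CPM and at least 50 times its mean in replicates 2 to 4 of those groups. Of 216 tracers tested, 22 rose and 0 fell with senescent MSCs (0.316% and 0.079% of all genes tested). Among the 22, EDNRA and PAG1 reached the level of the low-count filter in senescent libraries alone. They had to be higher there to be tested, so their calls are no support for a difference. Of the tracers, 187 had a log2 fold change above 0, and the median was 0.69 (quartiles 0.26 and 1.17). In 95 tracers every senescent library lay above every young one and in 5 every one lay below, against 7.65% and 6.35% of all genes tested. The median tracer stood at 0.465, 0.589 and 0.482% of its stromal-rich level in the control libraries, at 1.60, 1.92 and 1.33% with young MSCs, and at 3.09, 2.40 and 2.02% with senescent MSCs. Every senescent library lay above every young one, and every young one above the controls.

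The tracers did not move as one. COL1A1 (ENSG00000108821.14, chr17:50183289-50201632 on GRCh38), encoding the alpha-1 chain of collagen I, was at 6.16, 6.45 and 5.87 CPM in control, 76, 65 and 50.7 CPM with young and 179.8, 143 and 125 CPM with senescent MSCs and rose (log2 fold change 1.22 ± 0.18, adjusted p = 0.0109). The 3 groups did not overlap. TERT (ENSG00000164362.21, chr5:1253147-1295069), the gene that immortalised the MSC line, stood at 1.98, 1.59 and 1.66 CPM in control, 8.45, 6.79 and 6.37 CPM with young and 4.79, 4.12 and 3.18 CPM with senescent MSCs. Every senescent library was below every young one, though the change did not pass the test (log2 fold change −0.84 ± 0.19, adjusted p = 0.134). THY1, a surface marker of MSCs, was at 3.66, 6.5 and 3.97 CPM with young and 10.6, 7.65 and 4.62 CPM with senescent MSCs, with overlap (log2 fold change 0.69 ± 0.29, adjusted p = 0.783). Of the 11 stromal markers checked, COL1A1, COL1A2, COL3A1, LUM and DCN rose, while POSTN, THY1, PDGFRA, PDGFRB, PRRX1 and TWIST1 had values above 0 that did not pass. In these bulk libraries, more MSCs and more RNA per MSC cannot be told apart, nor can RNA made by either cell type.

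**Figure D2:**
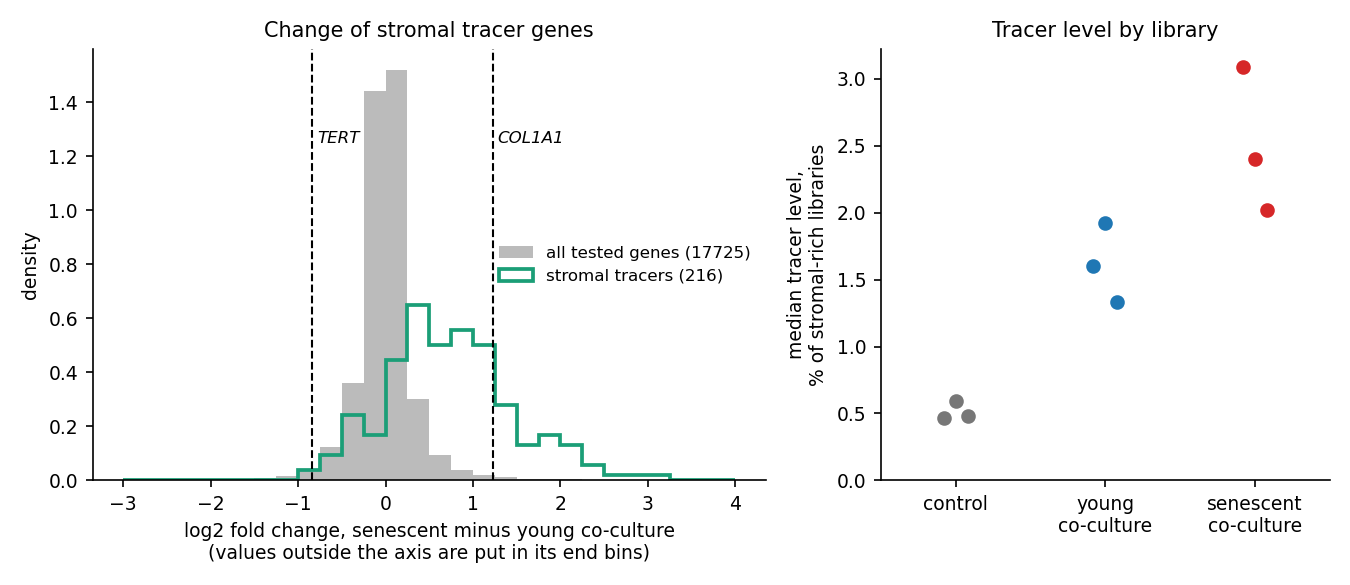
Left, the density of log2 fold changes (senescent minus young co-culture) for all plotted genes and for the 216 stromal tracers, with dashed lines at TERT and COL1A1. Right, the median tracer level of each library as a percent of the level in stromal-rich libraries; the senescent libraries, at 2.02 to 3.09%, lie above the young ones at 1.33 to 1.92%.

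Some cytokines, growth factors and proteases of the secretory phenotype rose, most of them genes that control cells hold at a low level. Of 93 listed secretory genes (interleukins, chemokines, EGF receptor ligands, proteases and inhibitors, growth factors), 76 were tested; 9 rose and 0 fell (0.316% and 0.079% of all genes tested), and most members did not pass. The median was 0.14 against 0.00 over all genes. Among the 39 that control cells express, 1 rose (SERPINE2), and the median was 0.04. IL1B (ENSG00000125538.12, chr2:112829751-112836903), the inflammatory cytokine interleukin-1 beta, stood at 1.34, 1.48 and 1.13 CPM in control, 2.33, 3.04 and 2.2 CPM with young and 17.2, 11.8 and 11.7 CPM with senescent MSCs. Senescent libraries were all above the others (log2 fold change 2.43 ± 0.21, adjusted p = 0.00056). EREG (ENSG00000124882.4, chr4:74365143-74388751), epiregulin, a ligand of the EGF receptor, was at 0.192, 0.269 and 0.193 CPM in control, 0.297, 0.296 and 0.291 CPM with young and 2.67, 2.02 and 2.33 CPM with senescent MSCs. Control and young libraries lay at or under 0.297 CPM and the senescent ones at 2.02 CPM or more (log2 fold change 2.98 ± 0.22, adjusted p = 0.000409). IL33, an alarmin cytokine, was below 0.12 CPM in each control and young library and at 0.785, 0.592 and 0.418 CPM with senescent MSCs (log2 fold change 2.86 ± 0.41, adjusted p = 0.01). LIF, a cytokine of the interleukin-6 family, was at 1.16, 0.732 and 0.896 CPM in control, 0.892, 0.898 and 0.873 CPM with young and 2.61, 2.69 and 2.21 CPM with senescent MSCs. It was flat between control and young libraries and higher in each senescent one (log2 fold change 1.50 ± 0.21, adjusted p = 0.00819). CXCL5, a chemokine that draws neutrophils, rose from 0.746 ± 0.115 CPM (mean ± SD, 3 libraries) to 2.89 ± 1.08 CPM, by 1.95 ± 0.28 on the log2 scale (adjusted p = 0.01). IGFBP5, an IGF binding protein, rose from 0.349 ± 0.034 to 1.56 ± 0.386 CPM, by 2.15 ± 0.26 on the log2 scale (adjusted p = 0.00341).

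Among proteases, MMP3 (ENSG00000149968.12, chr11:102835801-102843803), stromelysin-1, stood at 0.441, 0.527 and 0.442 CPM in control, 0.478, 0.512 and 0.301 CPM with young and 3.24, 1.99 and 3.39 CPM with senescent MSCs. Young and control libraries overlapped, and the senescent ones lay apart from both (log2 fold change 2.73 ± 0.28, adjusted p = 0.000958). ADAMTS5, which cleaves aggrecan, was also higher in each senescent library, at 0.811, 0.665 and 0.851 CPM against 0.17, 0.135 and 0.13 CPM (log2 fold change 2.41 ± 0.30, adjusted p = 0.00455). PTGES, the inducible prostaglandin E synthase, rose from 0.695 ± 0.151 to 3.87 ± 1.6 CPM, by 2.48 ± 0.32 on the log2 scale (adjusted p = 0.00512), and C3, the central complement component, from 1.38 ± 0.325 to 6.03 ± 1.81 CPM, by 2.13 ± 0.25 on the log2 scale (adjusted p = 0.00341). C11orf96 had the largest rise among near-absent genes that reached 1 CPM, at 0.191, 0.153 and 0.161 CPM with young and 1.99, 1.95 and 1.21 CPM with senescent MSCs (log2 fold change 3.35 ± 0.31, adjusted p = 0.000799). MEDAG, a gene of adipocyte differentiation, was next, at 0.616, 0.898 and 0.542 CPM with young and 7.07, 5.82 and 4.41 CPM with senescent MSCs (log2 fold change 3.07 ± 0.26, adjusted p = 0.00056). C1QTNF1, a secreted protein related to complement C1q, stood at 0.287, 0.341 and 0.251 CPM with young and 2.33, 1.75 and 1.3 CPM with senescent MSCs (log2 fold change 2.61 ± 0.27, adjusted p = 0.00104). MOXD1, a monooxygenase-like protein, rose to 14.8, 9.5 and 8.02 CPM from 2.26, 3.44 and 2.31 CPM (log2 fold change 2.01 ± 0.26, adjusted p = 0.00512), and CRABP2, a retinoic acid binding protein, by 1.31 ± 0.23 (adjusted p = 0.0386). The largest fold among the 70 called genes belonged to LINC01705, a noncoding RNA picked here after its values were seen. It held 0, 0.00898 and 0 CPM with young and 0.399, 0.375 and 0.433 CPM with senescent MSCs, and no fold is given because its young libraries are at or near 0. LINC01705 reached the level of the low-count filter in senescent libraries alone, so it had to be higher there to be tested.

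The secretory genes differed in how strongly the stromal-rich libraries carry them. IL1B averaged 157 CPM in those 5 libraries against 2.29 CPM in their replicates 2 to 4, and EREG 39.2 against 0.223 CPM; both are tracers. MMP3 averaged 1.39 against 0.509 CPM and IL33 0.143 against 0.071 CPM, and neither is a tracer. LIF, CXCL5 and C3 lay between, at 9.74, 6.64 and 6.52 CPM in the stromal-rich libraries against 0.942, 0.797 and 1.1 CPM. The part of stromal RNA in each rise was not tested.

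A minority of matrix genes rose with senescent MSCs. Of 35 genes tested in the matrix list, 9 rose and 0 fell (0.316% and 0.079% of all genes tested), with a median of 0.73. In 21 every senescent library lay above every young one and in 1 below, against 7.65% and 6.35% of all genes. Among the 15 members that are tracers, 6 rose and the median was 1.22. Among 11 members expressed in control and no tracer, 0 rose or fell and the median was −0.03. The other 9 held 3 rises. COL1A2, the partner chain of collagen I, was at 5.79, 6.29 and 5.72 CPM in control, 42.2, 37.5 and 26.1 CPM with young and 99.8, 83.1 and 80.2 CPM with senescent MSCs (log2 fold change 1.31 ± 0.18, adjusted p = 0.00734). COL3A1 (ENSG00000168542.16, chr2:188974320-189012746), collagen III, was at 3.14, 3.91 and 2.93 CPM in control, 19.8, 18.6 and 11.6 CPM with young and 63.3, 51.8 and 46.7 CPM with senescent MSCs (log2 fold change 1.69 ± 0.21, adjusted p = 0.00429). Each group stood apart from the others in both genes. ELN, the elastic fibre protein elastin, was at 0.701, 0.854 and 0.231 CPM with young and 6.12, 3.52 and 2.11 CPM with senescent MSCs (log2 fold change 2.71 ± 0.45, adjusted p = 0.0255). FMOD, DCN and LUM, small proteoglycans that bind collagen, rose by 2.87 ± 0.46, 1.91 ± 0.31 and 1.72 ± 0.28 on the log2 scale (adjusted p = 0.022, 0.0249 and 0.0249). FMOD reached the level of the low-count filter in senescent libraries alone, so it had to be higher there to be tested, and its fold rests on few reads. FBLN1, fibulin-1, rose by 1.94 ± 0.23 (adjusted p = 0.00341), and COL6A2, a collagen VI chain, by 1.20 ± 0.20 (adjusted p = 0.0239). When 1 of the 6 co-culture libraries was left out at a time, COL3A1 and FBLN1 were called in all 6 fits and COL1A2 in 5. COL1A1, ELN, DCN, LUM and COL6A2 were called in 2 of these fits and FMOD in 1. The list's share of all counts overlapped, at 0.280 ± 0.020% with senescent and 0.256 ± 0.055% with young MSCs (SD, n = 3 and 3; exact permutation test, two-sided, p = 0.5, adjusted p = 0.867). In the separate basement membrane list, 1 of 21 tested genes rose and 0 fell (median 0.04). It was NID2, a basement membrane linker and a tracer, by 1.49 ± 0.24 (adjusted p = 0.0229). NID2 was called in 0 of the 6 fits without 1 co-culture library.

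In the stromal identity list 3 of 22 genes rose and 0 fell (median 0.33), against 0.316% and 0.079% of all genes tested. NOTCH3 (ENSG00000074181.9, chr19:15159038-15200981), the Notch receptor of mural cells, stood at 0.163, 0.161 and 0.125 CPM in control, 0.744, 0.557 and 0.883 CPM with young and 3.91, 3.14 and 3.6 CPM with senescent MSCs (log2 fold change 2.29 ± 0.22, adjusted p = 0.000799), each group apart from the next. LRRC15, a fibroblast surface protein, was at 0.701, 0.521 and 0.301 CPM with young and 3.31, 2.47 and 2.87 CPM with senescent MSCs (log2 fold change 2.50 ± 0.30, adjusted p = 0.00341), and MEDAG is given above. Among the 7 members that control cells express and that are no tracer, 0 rose or fell and the median was −0.20. CD248, endosialin of stromal cells, is outside this list and rose by 1.23 ± 0.21 (adjusted p = 0.0273).

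Of the genes that control endothelial cells express, 11 changed. COL1A1 and COL1A2 are the 2 tracers among them. SULT1B1 (ENSG00000173597.9, chr4:69721162-69787961), a cytosolic sulfotransferase, stood at 58.6, 92.3 and 66.6 CPM in control, 26.2, 25.3 and 21.2 CPM with young and 46.2, 51.7 and 56.7 CPM with senescent MSCs. Young libraries were the lowest, and the senescent ones lay between them and control (log2 fold change 1.09 ± 0.18, adjusted p = 0.0253). TNFAIP3 (ENSG00000118503.15, chr6:137867188-137883312), the A20 brake on NF-kB signalling, was at 13.1, 13.3 and 10.6 CPM in control, 8.55, 6.29 and 6.36 CPM with young and 14.5, 14 and 11.9 CPM with senescent MSCs. Senescent libraries overlapped control, and young ones lay under both (log2 fold change 0.93 ± 0.17, adjusted p = 0.0423). LAT2, a membrane adaptor protein, had the same order, at 6.31, 6.66 and 6.08 CPM in control, 3.4, 3.96 and 3.66 CPM with young and 5.97, 6.39 and 6.06 CPM with senescent MSCs (log2 fold change 0.74 ± 0.14, adjusted p = 0.0435). PLVAP (ENSG00000130300.9, chr19:17351448-17377350), the protein of endothelial fenestral diaphragms, was at 21, 18.4 and 29.6 CPM in control, 23, 19.5 and 20.4 CPM with young and 39.3, 42.1 and 50.6 CPM with senescent MSCs. Here young and control libraries overlapped and the senescent ones were higher (log2 fold change 1.07 ± 0.18, adjusted p = 0.0326). SERPINE2, protease nexin-1, an inhibitor of thrombin and plasminogen activators, was at 18.8, 15.3 and 18.2 CPM in control, 30.1, 29.1 and 27 CPM with young and 67.1, 56.4 and 46 CPM with senescent MSCs, in 3 separate groups (log2 fold change 0.98 ± 0.16, adjusted p = 0.0227).

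The stromal-rich libraries held less of some of these genes and more of others. SULT1B1 averaged 35.6 CPM there against 81.8 CPM in their replicates 2 to 4, PLVAP 4.18 against 31 CPM, and LAT2 3.51 against 6.84 CPM. SERPINE2 went the other way, at 116 against 18.5 CPM, and TNFAIP3 had 25.9 against 16.4 CPM. The young libraries enter both this comparison and the one with control, so a return toward control is described by the levels alone.

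OAS2, ATOH8 and HIF1A-AS3 were among the 4 that fell. OAS2 is described with the interferon genes. ATOH8 (ENSG00000168874.13, chr2:85751344-85788066), a transcription factor of the atonal family, stood at 16.3, 11.3 and 18.4 CPM in control, 26.7, 25.8 and 33.5 CPM with young and 11.7, 13.5 and 12.5 CPM with senescent MSCs; young libraries were highest and senescent ones overlapped control (log2 fold change −1.19 ± 0.19, adjusted p = 0.0183). HIF1A-AS3, a noncoding RNA antisense to HIF1A, was at 7.9, 10.6 and 8.63 CPM in control, 5.31, 6.51 and 4.46 CPM with young and 2.31, 1.79 and 2.37 CPM with senescent MSCs (log2 fold change −1.33 ± 0.19, adjusted p = 0.011). It declined from control over young to senescent libraries without overlap. The strand setting of the counting is not given in the sources used here, so reads of an antisense gene and its partner may not have been told apart. Of these 11 control-expressed genes, COL1A2 lost its call without 1 of the 6 co-culture libraries and each of the others without 3 or more.

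**Figure D3:**
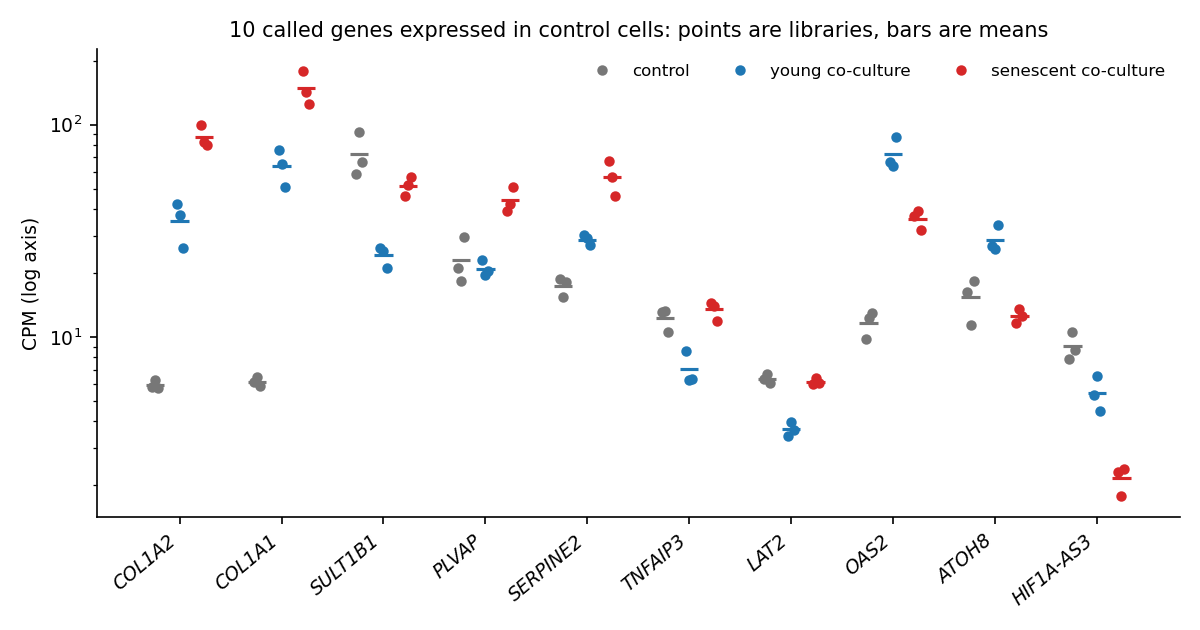
Levels (CPM, log axis) of 10 of the 11 called genes that control cells express, with 1 point per library and a bar at each group mean. In SULT1B1, TNFAIP3 and LAT2 the young libraries are lowest; in OAS2 and ATOH8 they are highest.

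Most interferon-stimulated genes had lower levels with senescent than with young MSCs. Of 53 tested, 4 fell and 0 rose (0.079% and 0.316% of all genes tested). By unadjusted p under 0.05, 27 fell and 0 rose, and by DESeq2, 10 and 0. Over all 17729 genes, 992 had an unadjusted p under 0.05 in either direction. In the list, 50 genes had a log2 fold change below 0, and the median was −0.49 against 0.00 over all genes. In 31 of them every senescent library lay below every young one and in 2 above, against 6.35% and 7.65% of all genes. None of the 53 is a tracer, and 38 are expressed in control, where the median was −0.42. The list was picked with an earlier result of these data known and is no independent evidence of direction. Its share of counts was 0.327 ± 0.012% with young, 0.257 ± 0.011% with senescent MSCs and 0.212 ± 0.016% in control (SD, n = 3 each; senescent against young, exact permutation test, two-sided, p = 0.1, the smallest possible, adjusted p = 0.433).

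OAS2 (ENSG00000111335.14, chr12:112978395-113011723), which makes the 2'-5' oligoadenylates that activate RNase L, stood at 9.73, 12.2 and 12.9 CPM in control, 66.9, 63.5 and 87.8 CPM with young and 36.9, 39.4 and 31.8 CPM with senescent MSCs (log2 fold change −1.01 ± 0.17, adjusted p = 0.0255). MX2 (ENSG00000183486.14, chr21:41361943-41409390), an antiviral GTPase, was at 0.134, 0.118 and 0.17 CPM in control, 3.77, 4.6 and 5.11 CPM with young and 1.41, 1.31 and 0.821 CPM with senescent MSCs (log2 fold change −1.93 ± 0.23, adjusted p = 0.00341). XAF1 (ENSG00000132530.17, chr17:6755447-6775647), a pro-apoptotic interferon target, was at 0.364, 0.549 and 0.408 CPM in control, 5.96, 6.12 and 6.27 CPM with young and 3.1, 3.13 and 2.39 CPM with senescent MSCs (log2 fold change −1.09 ± 0.18, adjusted p = 0.0255). In these 3 genes control was lowest, senescent co-culture intermediate and young co-culture highest, with no overlap. IFITM1 (ENSG00000185885.17, chr11:313506-315272), a membrane protein that blocks virus entry, had the same order, at 1.38, 1.22 and 0.737 CPM in control, 5.89, 7.65 and 7.02 CPM with young and 3.27, 2.54 and 1.99 CPM with senescent MSCs (log2 fold change −1.40 ± 0.25, adjusted p = 0.0364). IFITM1 has close copies in IFITM2 and IFITM3, which were at −0.11 and −0.28, and reads may be split among them. When 1 of the 6 co-culture libraries was left out at a time, MX2 was called in all 6 fits. OAS2 was called in 1 of these fits, and XAF1 and IFITM1 in 0. With scaling on endothelial genes, 1 of the 53 listed genes was called lower.

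Members that did not pass the test leaned the same way in level. IFIT1, which binds viral RNA, was at 4.28, 8.78 and 8.03 CPM in control, 35.4, 57.7 and 52.4 CPM with young and 19.2, 22.6 and 15 CPM with senescent MSCs (log2 fold change −1.36 ± 0.27, adjusted p = 0.0704), and ISG15, a ubiquitin-like modifier, at 28.5, 32.7 and 29.4 CPM in control, 52.6, 77.7 and 78.8 CPM with young and 46.6, 49.1 and 30.3 CPM with senescent MSCs (log2 fold change −0.73 ± 0.20, adjusted p = 0.328). OAS1 was at 33.8, 37.1 and 38.5 CPM in control, 90.9, 112 and 114 CPM with young and 82.7, 75.9 and 66.1 CPM with senescent MSCs (log2 fold change −0.49 ± 0.14, adjusted p = 0.34). In all 3 the senescent libraries lay below the young ones. Over the list, every young library was above every control library in 34 genes (background 15.9%) and every senescent library in 17 (background 15.6%); these counts share the control libraries. The 23 tested genes of interferon ligands, receptors and signalling had 0 calls in either direction (2 lower and 0 higher at an unadjusted p under 0.05, 0 by DESeq2) and a median of −0.03.

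Stromal-rich libraries carry some of these transcripts too. There MX2 averaged 5.81 CPM against 0.177 CPM in their replicates 2 to 4, XAF1 14.9 against 0.497 CPM, IFITM1 5.22 against 1.25 CPM and OAS2 36.7 against 13.4 CPM. Which cells account for the lower levels cannot be told apart, while the median tracer moved up.

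Promoter sequences of the list were read for the interferon element. The element core (GAAA, any 2 bases, GAAA) was searched on both strands, overlapping matches allowed, in the 250 bases before each start site of RefSeq (GRCh38.p14). It was present for 28 of the 43 listed genes with an entry (65.1%), against 3.71% of 27305 genes in the table. The last 130 bases before the start are shown for the fallen genes with an entry, IFITM1 (chr11:313910-314039, + strand) and XAF1 (chr17:6755916-6756045, + strand, 1 of its 2 windows), and for ISG15 (chr1:1013367-1013496, + strand), added after the values were seen. Capitals mark the core.
IFITM1: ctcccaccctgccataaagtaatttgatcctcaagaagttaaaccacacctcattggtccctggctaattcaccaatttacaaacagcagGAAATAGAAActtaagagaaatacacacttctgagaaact
XAF1: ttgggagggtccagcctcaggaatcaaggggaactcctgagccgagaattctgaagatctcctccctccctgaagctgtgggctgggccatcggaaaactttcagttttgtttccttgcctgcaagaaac
ISG15: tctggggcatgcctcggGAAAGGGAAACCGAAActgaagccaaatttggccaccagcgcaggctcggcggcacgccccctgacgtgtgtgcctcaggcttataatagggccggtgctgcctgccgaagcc
IFITM1 has 1 core, which begins 40 bases before the start. ISG15 has 2 that overlap and begin at 113 and 107 bases, and these letters are not in the XAF1 windows. The AP-1 core TGANTCA, searched likewise, was in the window of 5 of the 43 interferon-stimulated genes (11.6%) and of 0 of 6 secretory genes that rose and have an entry, against 8.06% of all genes.

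**Figure D4:**
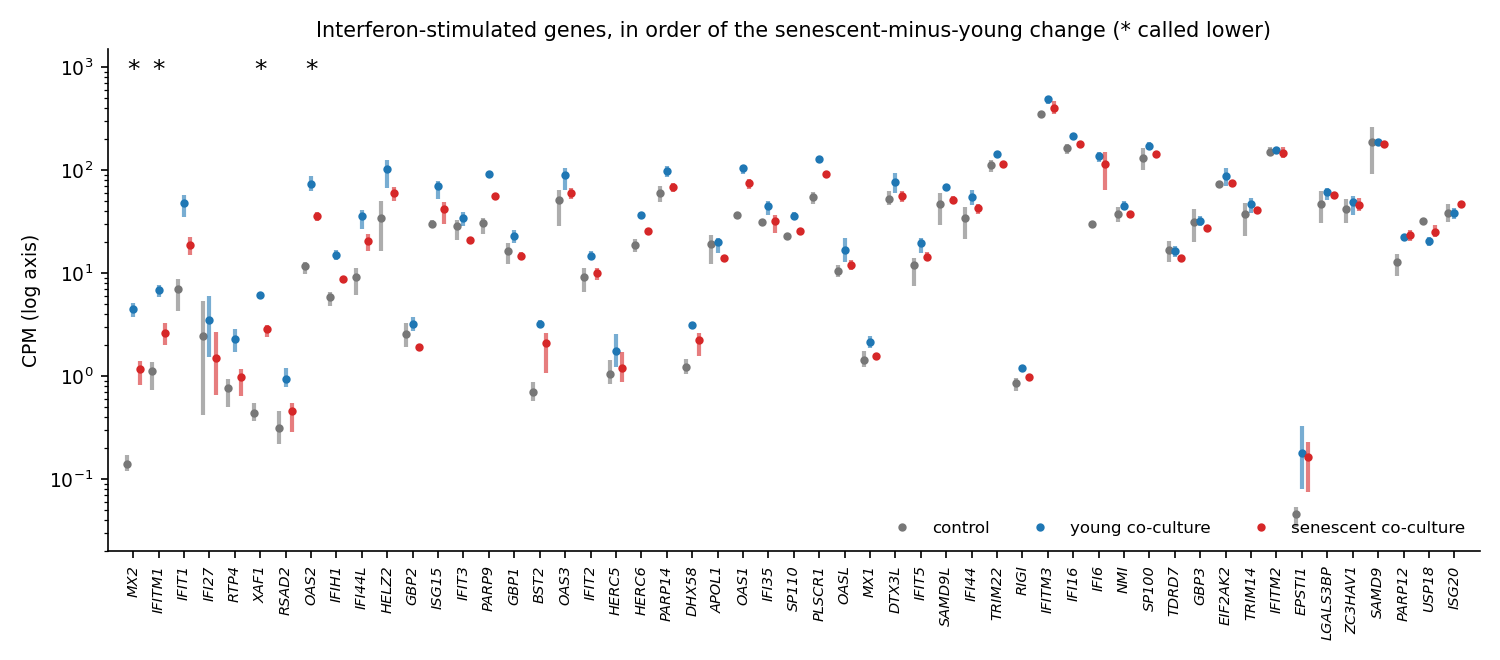
Mean level (points) and range of 3 libraries (lines), in CPM on a log axis, of the 53 interferon-stimulated genes in control, young and senescent co-culture, ordered by the senescent-minus-young change. Stars mark the 4 genes that fell; most young points lie above both other groups.

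Most other genes that fell stood above control with young MSCs. CYP1A1 (ENSG00000140465.14, chr15:74719542-74725610), a cytochrome P450 enzyme switched on by the aryl hydrocarbon receptor, stood at 4.06, 3.31 and 6.7 CPM in control, 13.1, 12.7 and 14.6 CPM with young and 1.6, 1.44 and 2.3 CPM with senescent MSCs. Young libraries were highest and senescent ones lowest, below control (log2 fold change −2.93 ± 0.27, adjusted p = 0.000799). Its relative CYP1B1, also a target of that receptor and a tracer, moved the other way, from 1.16 ± 0.238 to 4.16 ± 1.24 CPM, by 1.85 ± 0.25 on the log2 scale (adjusted p = 0.00734). These are the 2 called of 13 tested genes of the receptor and its targets, whose median was −0.10. Of all genes tested, 0.395% were called. DHRS3 (ENSG00000162496.9, chr1:12567910-12617731), a retinaldehyde reductase, was at 0.527, 0.559 and 0.771 CPM in control, 6.71, 6.61 and 7.52 CPM with young and 2.25, 1.97 and 1.3 CPM with senescent MSCs (log2 fold change −1.91 ± 0.22, adjusted p = 0.00318). SCUBE1, a secreted protein of endothelium and platelets, was at 0.24, 0.226 and 0.329 CPM in control, 3.28, 2.21 and 1.22 CPM with young and 0.758, 0.628 and 0.568 CPM with senescent MSCs (log2 fold change −1.78 ± 0.33, adjusted p = 0.0462). CCN5, a matricellular protein, was at 2.73, 2.07 and 3.74 CPM in control, 7.61, 8.49 and 8.81 CPM with young and 3.79, 3.78 and 2.55 CPM with senescent MSCs (log2 fold change −1.30 ± 0.23, adjusted p = 0.0364). In DHRS3, SCUBE1 and CCN5 every young library lay above the control and senescent libraries. Of the 14 genes that fell, young libraries were all above control in 12 and all below it in 2 (background 15.9% and 10.4%), and senescent libraries were all below control in 4 (background 9.95%). The same libraries chose these genes as fallen, so the counts only describe them. The 2 below control with young MSCs are noncoding: HIF1A-AS3 and ENSG00000257732, an antisense gene at chr12:104262314-104280722, at 3.02, 4.51 and 4.42 CPM in control, 0.892, 1.6 and 1.71 CPM with young and 0.293, 0.242 and 0.269 CPM with senescent MSCs (log2 fold change −2.38 ± 0.30, adjusted p = 0.00429).

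Endothelial identity genes gave 1 rise (PLVAP) in 33 tested, with a median of 0.00. Of all genes tested, 0.316% rose. PECAM1, an adhesion receptor of endothelial junctions, was at 429, 486 and 672 CPM in control, 1355, 1324 and 1291 CPM with young and 1242, 1301 and 1430.0 CPM with senescent MSCs (log2 fold change 0.00 ± 0.16, adjusted p = 1). CDH5, VE-cadherin, was at 320.2, 202 and 273 CPM in control, 855, 632 and 763 CPM with young and 718, 731 and 823 CPM with senescent MSCs (log2 fold change 0.01 ± 0.18, adjusted p = 1). Both were higher in each co-culture library than in control and overlapped between young and senescent. NOS3, endothelial nitric oxide synthase, had 361, 246 and 355 CPM with young and 539, 547 and 500.0 CPM with senescent MSCs, with no overlap, but did not pass the test (log2 fold change 0.72 ± 0.24, adjusted p = 0.509). Their share of counts was 0.962 ± 0.032% with senescent and 0.908 ± 0.080% with young MSCs (SD, n = 3 and 3; exact permutation test, two-sided, p = 0.4, adjusted p = 0.8).

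Cholesterol synthesis and uptake genes had 0 calls in 24 tested (by unadjusted p under 0.05, 9 lower and 0 higher; by DESeq2, 3 lower), but 22 had a log2 fold change below 0 and the median was −0.29. In 12 every senescent library lay below every young one, against 6.35% of all genes. INSIG1, which holds back sterol synthesis, was at 19.8, 20.2 and 22.3 CPM in control, 44.5, 46.3 and 60.1 CPM with young and 33.3, 31.3 and 32.8 CPM with senescent MSCs (log2 fold change −0.63 ± 0.14, adjusted p = 0.132). The 13 mitochondrially encoded genes were all below 0 (median −0.16) with overlap in each, 0 calls by edgeR, at an unadjusted p under 0.05 or by DESeq2. Cell cycle genes had 0 calls in 50 (2 higher at an unadjusted p under 0.05, 0 by DESeq2; median 0.02) and p53 targets 0 in 28 (2 lower at an unadjusted p under 0.05, 1 lower by DESeq2; median −0.05).

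The senescence effect was then set against that of conditioned medium and of decellularised matrix from the same kinds of MSC, each over replicates 2 to 4 (21 libraries in one fit, 18492 genes). The effects share no library. The effect in co-culture differed from that of conditioned medium in 19 genes (0.103%), 13 with a more positive and 6 with a more negative value in co-culture, and from that of matrix in 9 genes (0.0487%), 7 and 2. Of the positive ones, C11orf96, MEDAG, MMP3, C1QTNF1, PTGES, IL1B and NOTCH3 passed against both. Among them IL1B, MEDAG and NOTCH3 are stromal tracers. MSCs were present in co-culture, but not with conditioned medium or decellularised matrix, so a change in RNA made by MSCs can appear in co-culture alone. For differences in either direction, RNA of endothelial cells and of MSCs cannot be told apart. IL1B changed by 2.43 ± 0.29 in co-culture, −0.41 ± 0.30 with conditioned medium and −0.19 ± 0.28 on matrix (log2 ± SE). NOTCH3 gave 2.29 ± 0.22, 0.04 ± 0.27 and −0.16 ± 0.27 in the same order. EREG, IGFBP5, C3, MOXD1, HAS1 and YPEL3 passed against conditioned medium, and their difference from matrix did not pass. In the main comparison HAS1 reached the level of the low-count filter in senescent libraries alone, so its value is no support for a difference.

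Among the negative differences, OAS2 changed by −1.01 ± 0.18 in co-culture and 0.64 ± 0.18 with conditioned medium (difference −1.65 ± 0.25, adjusted p = 0.00603). XAF1 changed by −1.09 ± 0.20 and 1.19 ± 0.23 (difference −2.28 ± 0.31, adjusted p = 0.00398), and MX2 by −1.92 ± 0.29 and 0.48 ± 0.35 (difference −2.41 ± 0.45, adjusted p = 0.0362). The conditioned-medium effects of OAS2, XAF1 and MX2 did not pass by themselves (edgeR, adjusted p = 0.308, 0.0709 and 0.664). So 3 of the 4 interferon-stimulated genes that fell in co-culture differed from conditioned medium (0.103% of all genes tested did), and none of the 4 passed against matrix. The same co-culture libraries chose these 4 genes as fallen and enter the difference, so the count only describes them. The list's median effect was 0.03 with conditioned medium and −0.01 on matrix. Against matrix, HIF1A-AS3 and ENSG00000257732 were more negative in co-culture, by −1.77 ± 0.29 and −2.33 ± 0.37 (adjusted p = 0.0135 and 0.0126). For CYP1A1, PLVAP, SULT1B1, TNFAIP3 and SERPINE2 neither difference passed, which does not show that the effects were alike. Leaving out 1 library at a time moved the counts from 19 to between 11 (without young co-culture replicate 4) and 42 (without young conditioned-medium replicate 4), and from 9 to between 1 (without senescent co-culture replicate 2 or senescent matrix replicate 4) and 11.

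**Figure D5:**
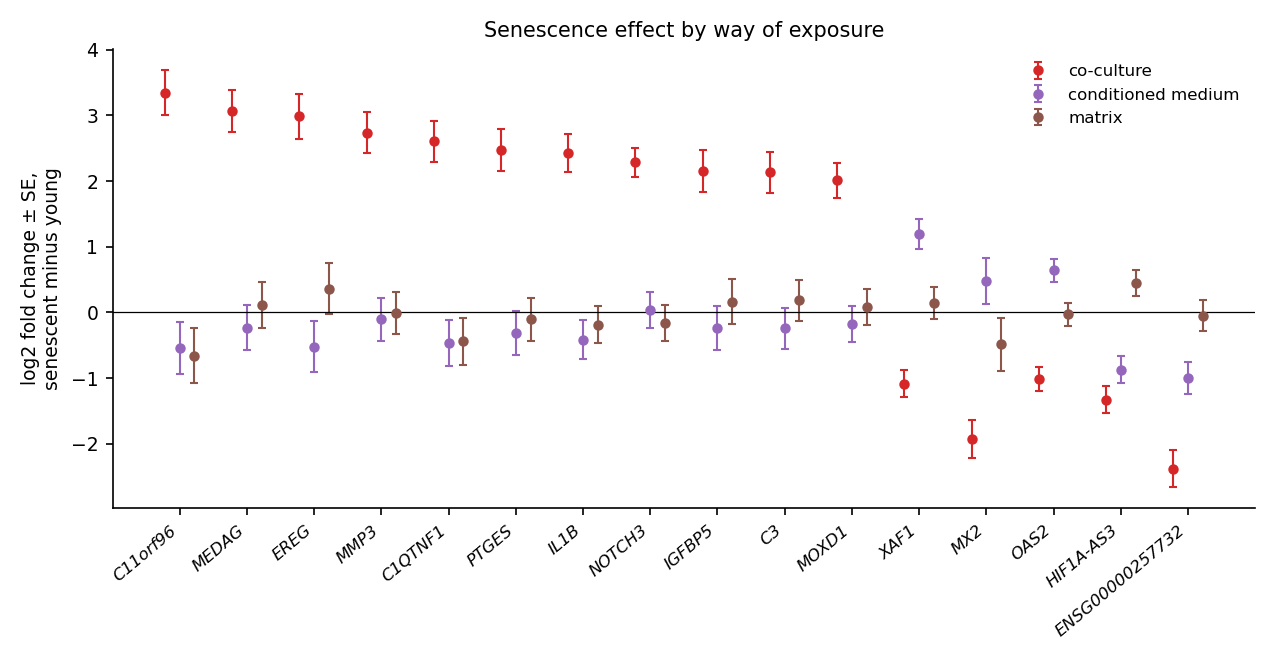
Log2 fold change (± SE) of senescent against young MSCs in co-culture, conditioned medium and matrix for 16 genes. MSCs were present in co-culture alone, so RNA made by MSCs can enter its values. The rises of the 11 genes on the left appear in co-culture at 2.0 or more, and their values with medium or matrix lie between −0.66 and 0.36. XAF1, MX2 and OAS2 fell in co-culture and had values above 0 with conditioned medium that did not pass the test.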

How the data were processed

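Poly(A) RNA was made into strand-marked libraries, per the labels' protocols. The submitters' processing notes name HISAT2 2.2.1, featureCounts 2.0.1 and GRCh38; annotation and strand setting: not given in the sources used here. The authors deposited 1 table of raw whole-number counts with 60648 gene entries. The 44 Y copies of pseudoautosomal genes were left out, and 0 columns belonged to other samples. Symbols came from a name table and positions from GENCODE 29 (GRCh38).

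Counts were tested with edgeR 4.0.16 (R 4.3.3; quasi-likelihood F-test, filterByExpr with a minimum of 10, TMM, Benjamini-Hochberg adjustment, threshold 0.05) over 9 libraries (control, young and senescent co-culture, replicates 2 to 4). Differences between ways of exposure used 21 libraries. In all, 3 comparisons ran across all genes. Adjusted p-values of genes come from edgeR, ± beside a log2 fold change is its standard error, and levels are CPM after TMM. Levels in replicate 1 libraries are scaled by TMM over 27 libraries.

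The members, 25 lists, classes and rules were chosen with earlier results of these data known. Named genes were the 8 largest rises and falls of each control-level class among called genes with a symbol, no overlap and a mean of at least 1 CPM, all called list members, and 12 fixed genes. Results of some genes are not reported here. No pair of libraries in a group agreed within sampling noise (chi-square per degree of freedom at least 27.0). On simulated counts for this comparison (17729 genes), 54% of genes raised 2-fold and 98% of those raised 4-fold were recovered, 72% and 90% of those lowered to 0.5 and 0.25 of their level, and 11 unchanged genes were called. Alternatives were DESeq2 1.42.0, other scaling, no filter, other class limits, a replicate block and each library left out. The precision is that of 3 libraries a side.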

Additional observations from a re-analysis of the deposited data

Results flagged for a closer look

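The senescence effect differed between direct co-culture and another way of exposure in 21 genes, by edgeR's test of the difference over 21 libraries. MSCs were present in co-culture alone, so RNA made by MSCs can enter these differences, and its part was not tested. Against conditioned medium, the log2 difference (co-culture minus medium) was 4.65 ± 0.86 in HAS1, 3.89 ± 0.52 in C11orf96, 3.51 ± 0.51 in EREG, 3.31 ± 0.46 in MEDAG, 3.24 ± 0.54 in YPEL3 and 3.08 ± 0.47 in C1QTNF1. HAS1 reached the level of the low-count filter in senescent libraries alone in the 9-library comparison, and its rank here is no support for a difference. The log2 difference was 2.84 ± 0.41 in IL1B, 2.84 ± 0.45 in MMP3, 2.79 ± 0.45 in PTGES, 2.40 ± 0.46 in IGFBP5, 2.37 ± 0.44 in C3, 2.25 ± 0.35 in NOTCH3 and 2.19 ± 0.38 in MOXD1. More negative in co-culture were CMKLR1 at −2.53 ± 0.39, MX2 at −2.41 ± 0.45, XAF1 at −2.28 ± 0.31, F2RL3 at −1.99 ± 0.36, OAS2 at −1.65 ± 0.25 and NEDD9 at −1.14 ± 0.19. NEDD9, CMKLR1 and F2RL3 were not called in co-culture itself, where their log2 fold changes were 0.18, −0.96 and −0.72. With conditioned medium they were 1.32, 1.57 and 1.27 (edgeR, adjusted p = 0.000195, 0.0709 and 0.0959). YPEL3 was not called in co-culture in the 9-library comparison (adjusted p = 0.068).

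Against matrix, the difference was 4.00 ± 0.54 in C11orf96, 3.05 ± 0.47 in C1QTNF1, 2.96 ± 0.47 in MEDAG, 2.75 ± 0.44 in MMP3, 2.62 ± 0.40 in IL1B, 2.58 ± 0.45 in PTGES and 2.45 ± 0.35 in NOTCH3. It was −2.33 ± 0.37 in ENSG00000257732 and −1.77 ± 0.29 in HIF1A-AS3.

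Single libraries also stood apart within groups of 4 by Dixon's test, which chance does in about 1 of 20 groups. In young co-culture these were replicate 1 for its ribosomal protein share of 27.6% and for PECAM1 at 704 CPM, against 1204 to 1278 CPM in the others. In control, replicate 1 stood apart with COL1A1 at 4034 CPM and TERT at 633 CPM, against at most 6.18 and 1.87 CPM in replicates 2 to 4. Neither replicate 1 library enters the comparison of senescent with young co-culture.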

How the results depend on the processing

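The 47 named genes that passed the test kept their direction in each alternative that gave them a value, while the counts moved. The counts of all, near-absent and control-expressed genes called were 70, 44 and 11. They were 150, 79 and 36 with DESeq2, 249, 126 and 58 with no filter on low counts, and 42, 28 and 4 with scaling on endothelial genes. With all replicates used, young replicate 1 included, edgeR called 0, 0 and 0 (566, 252 and 204 at an unadjusted p under 0.05), and DESeq2 4, 1 and 0. Leaving out 1 co-culture library gave 25 to 55, 18 to 39 and 0 to 5; the 0 control-expressed calls, without senescent replicate 2, stand beside 214 at an unadjusted p under 0.05 and 17 by DESeq2. Leaving out control replicate 2, 3 or 4, an alternative added after seeing the data, gave 21, 25 and 6 control-expressed genes (49 to 104 and 33 to 54 for the other counts). The 6 co-culture libraries alone gave 29 of them, and class limits of 0.5 and 10 CPM or of 2 and 2 CPM gave 6 and 17. Differences from conditioned medium and matrix, 19 and 9 genes, became 61 and 21 with DESeq2, and 184 and 101 with no filter. Leaving out 1 library gave 11 to 42 and 1 to 11.

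The deviations of same-numbered young and senescent libraries from their group means had correlations of −0.62, 0.05 and 0.31. Differently numbered libraries gave −0.59 to 0.74. Deviations within 3 libraries sum to 0, so these values cannot decide whether the numbers pair the libraries. With a replicate block the counts were 84, 47 and 15, and 54 and 24 for the differences.

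The uncalled, near-zero values of PECAM1 and CDH5 changed sign. The log2 fold change of PECAM1 was −0.0012 with DESeq2 size factors, −0.000602 with DESeq2, −0.033 with no filter, −0.020 with the block, −0.00795 in 6 libraries, −0.027 with endothelial scaling, −0.011 without control replicate 4, and between −0.073 (without senescent replicate 4) and 0.038 (without senescent replicate 2) when 1 co-culture library was left out, also below 0 without young replicate 4 (−0.015). The log2 fold change of CDH5 was −0.021 with no filter, −0.0031 with endothelial scaling, and between −0.094 (without young replicate 3) and 0.11 (without young replicate 2) when 1 co-culture library was left out, also below 0 without senescent replicate 4 (−0.067). The cause was not tested. The share differences of the matrix, interferon-stimulated and endothelial lists, the mitochondrial genome and ribosomal protein genes kept their sign in each alternative run. Alternatives for the other shares are not reported here. Depth limits genes near the filter, at about 0.109 CPM.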
